A study of Mus musculus with 4 samples.

Results

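The 9 genes described here are complement components and complement receptors of brain myeloid cells: C1qa, C1qb and C1qc, which encode the chains of C1q, then C3 and C4b, the anaphylatoxin receptor genes C3ar1 and C5ar1, and Itgam and Itgb2, the subunits of complement receptor 3. They were taken by symbol from the 32372 features of the deposited count matrices, with no cut on measured values. The list was chosen with earlier results of these data known. Single-cell RNA had been measured in 4 libraries of CD11b+/CD45+ cells obtained from left hemispheres by flow sorting and made with 10x Genomics 3′ chemistry. Of these, 2 were labelled miR-155 cKO and 2 Control.

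All mice were labelled female and 4 months old, and all carried APP/PS1, a transgenic combination that drives amyloid deposition. In the cKO libraries the gene of the microRNA miR-155 had been deleted in microglia, and the Control libraries had APP/PS1 without that deletion. No mouse without the amyloid transgenes was analysed here. The labels name neither the Cre driver nor the deleted part of the locus, and call the libraries biological replicates without saying how many mice went into each.

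Complement is a cascade of plasma and tissue proteins that tags surfaces for removal. C1q recognises the target and starts the classical pathway, C4 and C2 form the convertase, and C3 is the protein that the pathways share and deposit. Fragments of C3 and C5 act on the receptors C3aR1 and C5aR1, while Itgam and Itgb2 pair into the CD11b/CD18 integrin that binds deposited C3. In brain, microglia are known as the main source of C1q, and the C1q, C3 and CR3 axis is known for its part in synapse removal.

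A barcode counted as a cell when it held 1000 or more unique molecular identifiers (UMIs, each a counted RNA molecule) of 500 or more genes, with no more than 10% of them mitochondrial. Below, values for the libraries follow the order cKO replicate 1, cKO replicate 2, Control replicate 1, Control replicate 2. Cells numbered 3828, 2852, 4351 and 2909, 13940 in all, and their median depths were 6158 to 7236 UMIs. The deposited matrices held 33130800 to 47574406 UMIs per library. No more than 4 cell barcodes were shared by any pair of libraries. Microglia markers were detected in nearly all cells, and UMIs of at least 3 markers of 1 other cell class were found in 86 barcodes. Control replicate 1 went against its label: Xist, which is transcribed from the inactive X chromosome of females, stood at 0.704 CPM there (counts scaled to the library total) and at 1756 to 1894 CPM in the other 3 libraries. Calls that ended without that library are given with their values beside the result. The file name of cKO replicate 2 has a run code that differs from the one shared by the remaining 3 libraries. The host transcript Mir155hg had 1 UMI in each cKO library and 7 and 11 in Control replicates 1 and 2.

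The C1q chains were among the most abundant transcripts. By mean CPM over the 4 libraries C1qa ranked 7, C1qb 9 and C1qc 10 of all genes, against ranks of 250 for Itgam, 576 for Itgb2, 724 for C3ar1, 3124 for C5ar1, 10023 for C4b and 10947 for C3. The kit counts transcript ends, so these levels were not divided by gene length. Together the C1q chains took 2.12%, 1.93%, 1.96% and 1.98% of all UMIs in cells, and all 9 genes 2.22%, 2.04%, 2.06% and 2.07%. Apart from C1q, the genes of this group thus made up little of the complement RNA counted.

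**Figure D1:**
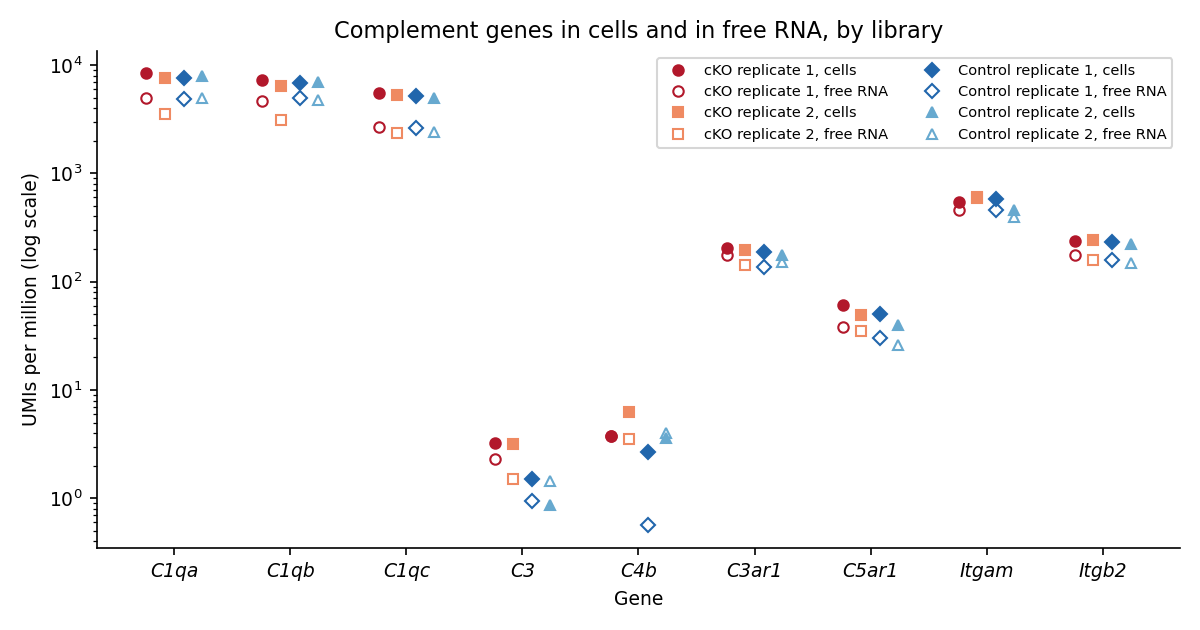
CPM (log scale) of the 9 genes in cells (filled symbols) and in free RNA, barcodes of at most 100 UMIs (open symbols), for each of the 4 libraries. The C1q chains lie highest and C3 and C4b lowest in every library.

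C1qa, C1qb and C1qc stand side by side on chromosome 4, all on the minus strand within 18.7 kb. In GRCm38, with GENCODE M21 positions, C1qb lies at chr4:136880129-136886187, C1qc at chr4:136889804-136893065 and C1qa at chr4:136895917-136898803. The shares of the chains varied little between libraries. C1qa made up 39.6%, 39.1%, 38.9% and 39.9% of C1q UMIs, C1qb 34.2%, 33.3%, 34.7% and 35.0%, and C1qc 26.2%, 27.6%, 26.4% and 25.1%.

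RefSeq promoter entries (GRCm38.p6) were matched for 6 of the 9 genes: C1qb, C1qc, C3, C3ar1, C5ar1 and Itgam. They were searched for PU.1 cores (GAGGAA), interferon response cores (GAAANNGAA), kappaB cores (GGANTTTCC), C/EBP sites (TTNNGCAA) and AP-1 sites (TGANTCA) on both strands. The 250 bases before the start of C1qb (chr4:136886201-136886450, minus strand) and of C1qc (chr4:136892915-136893164, minus strand) are shown, since these C1q chains had entries. Letters run 5′ to 3′ on the gene's strand and capitals mark a match on either strand.
C1qb: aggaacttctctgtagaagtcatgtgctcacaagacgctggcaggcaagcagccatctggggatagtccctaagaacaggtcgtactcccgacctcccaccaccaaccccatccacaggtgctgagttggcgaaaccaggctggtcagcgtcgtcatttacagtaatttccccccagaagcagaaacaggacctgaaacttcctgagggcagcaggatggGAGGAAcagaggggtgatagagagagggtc
C1qc: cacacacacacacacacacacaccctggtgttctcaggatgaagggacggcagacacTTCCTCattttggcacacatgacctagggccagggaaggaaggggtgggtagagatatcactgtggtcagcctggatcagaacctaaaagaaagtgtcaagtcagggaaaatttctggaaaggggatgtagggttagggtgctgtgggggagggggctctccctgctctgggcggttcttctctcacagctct
The C1qb stretch holds a PU.1 core whose first base is 30 bases before the start (position -30), and the C1qc stretch one at position -193, read on the other strand. A PU.1 core stands in 28.3% of all 32851 RefSeq mouse promoters of the same 300 bases. None of the other motifs was found in the 300 bases of C1qb or C1qc. These are matches of letters and were not tested as binding sites.

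Single cells varied around a common C1q level. After each cell was thinned to 2000 UMIs, which left out 1057 shallower cells, the median was 42, 38, 39 and 39 C1q UMIs per cell. The middle 90% of cells ran from 24 to 64, 23 to 58, 23 to 60 and 23 to 61 UMIs. The variance was 3.2 to 3.6 times the mean, above the value of 1 for counting error alone. Within a library, cells with more C1qa also had more C1qb, with Pearson r of 0.41 to 0.45 over 2633 to 3999 cells. These correlations are descriptions, since the cells of a library are not replicates. Presence alone carries no information: a barcode of 2000 UMIs drawn from free RNA would hold a C1qa UMI in at least 99.9% of cases.

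**Figure D2:**
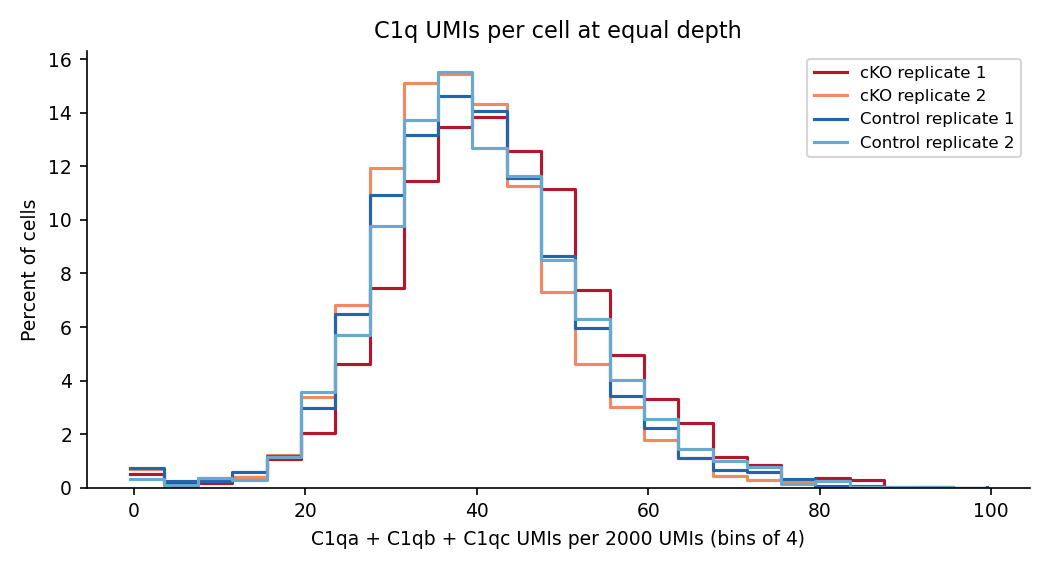
Distribution of the summed C1qa, C1qb and C1qc UMIs per cell after thinning to 2000 UMIs, as percent of the cells of each library in bins of 4 UMIs. Each library has a single peak, with medians of 38 to 42.

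A small set of barcodes had little C1q. Below 0.5% of their UMIs, a limit chosen after the values were seen, lay 615 of 13940 barcodes, with a median depth of 1364 UMIs against 6647 in the rest. Of the 615, 29 had at least 3 markers of another cell class, or 4.72% against 0.428% of the rest. The median number of microglia markers was 6 in the 615 and 12 in the rest. Markers were not counted at equal depth. The 615 included 26 of the 32 barcodes with at least 3 monocyte markers and 5 of the 5 with neutrophil markers. They included 0 of the 17 with markers of border-associated macrophages, the macrophages of meninges and vessels. C1q took 0.646% of the UMIs of monocyte-marked barcodes, 0.15% in neutrophil-marked and 1.91% in those marked as border-associated macrophages. It took 1.98% in the 36 barcodes marked as other brain and blood cells, and 2.00% in barcodes with no such mark. Whether marked barcodes also held microglia was not tested. The part of free RNA in these shares was not tested.

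Genotype did not separate the C1q chains. C1qa stood at 8291, 7206, 7620 and 8330 CPM scaled with TMM factors. The cKO mean was 7749 ± 767 (SD, n = 2) and the Control mean 7975 ± 502 (SD, n = 2). The value of cKO replicate 1 lay between those of the Control libraries and that of cKO replicate 2 below them. The log2 difference of cKO from Control was -0.04 (SE 0.16) by edgeR's quasi-likelihood test on UMIs summed per library, with an adjusted p of 0.965. C1qb stood at 7166, 6143, 6789 and 7323 CPM, a log2 difference of -0.08 (SE 0.16, adjusted p = 0.928 by edgeR). C1qc stood at 5493, 5084, 5175 and 5249 CPM, a difference of 0.02 (SE 0.14, adjusted p = 0.980 by edgeR). The groups overlapped for all 3 chains, and the sign of each of these differences turned when single libraries were left out.

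C3, at chr17:57203970-57228136 on the minus strand, is the protein on which all complement pathways converge, and its RNA was rare in these cells. There were 107, 83, 58 and 22 UMIs in 63, 40, 27 and 21 barcodes. Thinned to 2000 UMIs, 0.530%, 0.450%, 0.125% and 0.038% of cells had a C3 UMI. A barcode of free RNA alone would give 0.456%, 0.304%, 0.188% and 0.290%, from 14, 9, 5 and 8 free UMIs. The shares of both Control libraries were no higher than that. Cells are not made of free RNA alone, and how much of their C3 was free RNA was not tested. Scaled levels were 3.18, 3.04, 1.51 and 0.918 CPM, both cKO libraries above both Control libraries. The fitted log2 difference was 1.32 (SE 0.28), 2.49-fold, with an adjusted p of 0.498 by edgeR, so C3 did not pass. It did pass with no filter on low counts (1.31, adjusted p = 0.000174 by edgeR), and in cells thinned to 2000 UMIs the difference was 2.50 (adjusted p = 0.164 by edgeR). C3 was the only one of the 9 genes whose groups did not overlap, while 39.2% of the 13607 genes tested had groups that did not overlap. None of the 9 genes was called, as was 0% of all genes by edgeR, where 987 genes had an unadjusted p under 0.05 and DESeq2 called 18.

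Few barcodes carried the C3 counts. A single barcode held 18, 14, 18 and 2 of the UMIs. Barcodes marked as another cell class, 25, 9, 43 and 9 in number, held 44, 6, 29 and 0. The neutrophil-marked barcodes reached 635 CPM and the monocyte-marked 157 CPM, against 1.57 CPM in barcodes with no such mark. Without the marked barcodes C3 stood at 1.91, 2.97, 0.775 and 0.871 CPM and the log2 difference was 1.48, so that the libraries kept their order by group. Without Control replicate 1 it was 1.75 (adjusted p = 0.103 by edgeR).

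C4b, at chr17:34728380-34743882 on the minus strand, encodes the classical pathway C4 that C1 cleaves. It had 126, 164, 103 and 92 UMIs, or 3.74, 6.01, 2.69 and 3.84 CPM. The value of cKO replicate 1 lay between those of the Control libraries. The log2 difference was 0.59 (SE 0.27, adjusted p = 0.702 by edgeR), and ran from 0.22 without cKO replicate 2 to 0.90 without cKO replicate 1, with 0.33 without Control replicate 1. Thinned to 2000 UMIs, 0.725%, 0.938%, 0.50% and 0.494% of cells had a C4b UMI. Free RNA alone would give 0.749%, 0.709%, 0.113% and 0.794%, from 23, 21, 3 and 22 free UMIs. The shares of cKO replicate 1 and Control replicate 2 were no higher than those of free RNA. How much of the C4b in cells was free RNA was not tested. C4a, a near-identical copy, was given 3, 1, 2 and 1 UMIs, so reads of the pair may have been split or dropped in counting and C4b levels are uncertain for that reason.

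The anaphylatoxin receptors did not differ by genotype beyond their spread. C3ar1, the receptor gene for the C3a fragment at chr6:122847138-122856161, stood at 201, 188, 188 and 188 CPM, a log2 difference of 0.05 (SE 0.08, adjusted p = 0.912 by edgeR). C5ar1, the receptor gene for C5a at chr7:16246743-16259540, stood at 60.8, 47.4, 49.9 and 42.6 CPM, with cKO replicate 2 between the Control libraries. Its difference was 0.22 (SE 0.13, adjusted p = 0.732 by edgeR), and ran from 0.03 without cKO replicate 1 to 0.39 without cKO replicate 2, with 0.34 without Control replicate 1. Thinned to 2000 UMIs, 29.2%, 30.6%, 30.5% and 28.0% of cells had a C3ar1 UMI, where free RNA alone would give 29.5%, 24.8%, 23.9% and 26.3%. The share was near that of free RNA in cKO replicate 1 and above it by a few percentage points in the others. As a part of all UMIs, C3ar1 in cells was 1.16, 1.38, 1.38 and 1.16 times that in free RNA. How much of the C3ar1 in cells was free RNA was not tested. For C5ar1 the shares were 10.9%, 10.1%, 8.15% and 7.60%, with 7.42%, 6.80%, 5.88% and 5.09% from free RNA alone.

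The receptor 3 subunits did not separate by genotype either. Itgam, the CD11b gene at chr7:128062640-128118491, stood at 539, 582, 575 and 490 CPM, a log2 difference of 0.07 (SE 0.11, adjusted p = 0.914 by edgeR) that ran from -0.03 without Control replicate 2 to 0.19 without Control replicate 1. Thinned to 2000 UMIs, 62.9%, 66.9%, 62.1% and 56.6% of cells had an Itgam UMI, where free RNA alone would give 59.8%, 69.3%, 59.8% and 54.9%. Itgb2, the CD18 gene at chr10:77530252-77565708, stood at 235, 231, 234 and 237 CPM, a difference of -0.02 (SE 0.08, adjusted p = 0.971 by edgeR). Both groups overlapped for either gene. CD11b was a marker of the sort, so all cells were selected for its protein. There were 2.30, 2.52, 2.46 and 2.07 Itgam UMIs per Itgb2 UMI. In single cells the pair did not vary together, with r of -0.03 to 0.02 at 2000 UMIs, a depth at which a cell held about 1 Itgam UMI.

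The question of whether complement RNA follows microglial states was asked at equal depth. Cells thinned to 2000 UMIs were assigned to a state when UMIs of at least 3 genes of its list were present. The lists were 12 genes of MGnD, the neurodegenerative or disease-associated phenotype (such as Clec7a, Lpl and Cst7), 12 interferon-induced genes and 10 genes of cells high in Tnf and Ccl4. None of the 9 genes was on a list. Cells of 1 state alone numbered 363, 122, 528 and 313 for MGnD, 129, 128, 136 and 87 for interferon and 490, 363, 317 and 339 for Tnf/Ccl4, against 2357, 1910, 2726 and 1692 of no state. Cells of several states, 883 in all, were left out. Before thinning, MGnD cells were deeper, with median depths of 10359 to 13273 UMIs against 5843 to 7122 in cells of no state. As a check, the homeostatic microglia genes P2ry12 and Tmem119 fell in MGnD cells, by 1.05 and 1.30 on the log2 scale.

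In MGnD cells Itgb2 rose and Itgam fell, with TMM factors and in plain CPM alike. Itgb2 stood at 334, 315, 296 and 311 CPM in MGnD cells and at 198, 208, 187 and 204 CPM in cells of no state, with no overlap. The log2 difference was 0.67 (SE 0.08, adjusted p = 2.19e-11 by edgeR) and 0.35 in plain CPM, 1.59-fold and 1.28-fold, higher in 4 of 4 libraries. Itgam stood at 453, 517, 484 and 481 CPM against 546, 584, 552 and 503, lower in 4 of 4 libraries, with a log2 difference of -0.18 (SE 0.06, adjusted p = 0.0181 by edgeR) and -0.50 in plain CPM. Hence a quantity free of scaling, Itgb2 UMIs per Itgam UMI, was 0.651 ± 0.060 (SD, n = 4) in MGnD cells and 0.366 ± 0.029 (SD, n = 4) in cells of no state. The Itgam call with TMM factors was lost without cKO replicate 1 (-0.14, adjusted p = 0.126 by edgeR) and without Control replicate 1 (-0.18, adjusted p = 0.0518 by edgeR), as well as at 1000 UMIs per cell (-0.13, adjusted p = 0.183 by edgeR) and with DESeq2 (-0.16, adjusted p = 0.0518).

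Whether the C1q chains rose in MGnD cells depends on the scaling. With TMM factors C1qa was higher by 0.16 (SE 0.04), C1qb by 0.35 (SE 0.04) and C1qc by 0.19 (SE 0.04) on the log2 scale, all called by edgeR, but in plain CPM C1qa was lower by edgeR at -0.16, C1qc lower at -0.12, and C1qb stood at 0.03 with an adjusted p of 0.441. Between these scalings the median difference of all genes moved from -0.03 to -0.34, so relative to other genes the chains were higher and relative to all UMIs they were not. C1qb changed relative to C1qa whatever the scaling. There were 0.958 ± 0.007 (SD, n = 4) C1qb UMIs per C1qa UMI in MGnD cells and 0.838 ± 0.009 (SD, n = 4) in cells of no state, higher in 4 of 4 libraries. In plain CPM C1qb was 7085, 7443, 6585 and 7081 in MGnD cells against 7292, 6294, 6810 and 6934.

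C3ar1 was 204, 207, 237 and 224 CPM in MGnD cells and 174, 163, 171 and 163 CPM in cells of no state. The log2 difference was 0.39 (SE 0.09, adjusted p = 0.000152 by edgeR) with TMM factors and 0.07 (adjusted p = 0.480 by edgeR) in plain CPM, where its call was lost. It was also lost with states set at 2 or more genes (0.22, adjusted p = 0.0881 by edgeR) and at 1000 UMIs per cell (0.27, adjusted p = 0.0860 by edgeR). C5ar1 (0.18, SE 0.15) and C4b (-0.99, SE 0.86, from 3 UMIs, and -0.37 without Control replicate 1) did not pass, and C3 had too few UMIs to be tested. Of the 8 genes tested, 5 were called higher and 1 lower, against 20.3% and 17.1% of 8204 genes. In plain CPM 1 was called higher (Itgb2) and 3 lower (C1qa, C1qc, Itgam), against 11.1% and 43.2%.

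**Figure D3:**
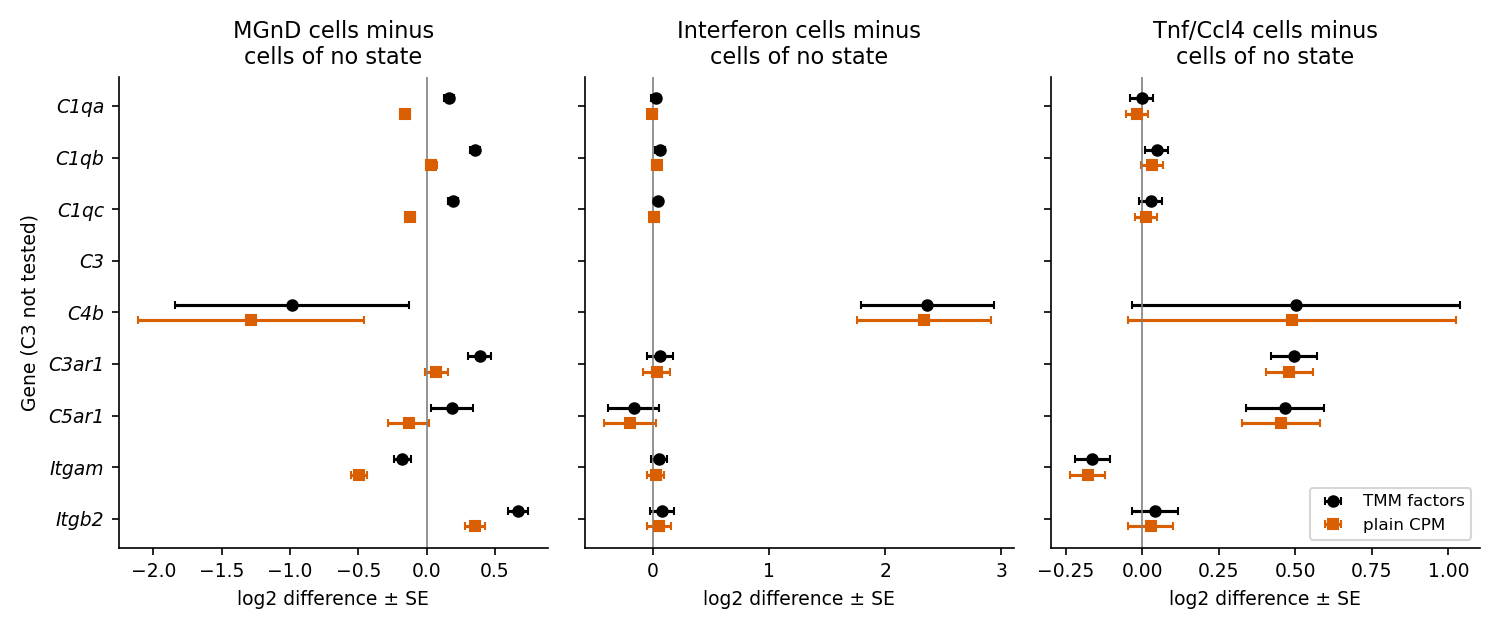
Log2 differences (± SE) of the 8 genes tested, C3 having too few UMIs, between cells of a state and cells of no state, at 2000 UMIs per cell, with TMM factors (circles) and in plain CPM (squares). In MGnD cells C1qa, C1qc and C5ar1 turn sign between the scalings, while C3ar1 in Tnf/Ccl4 cells and C4b in interferon cells hardly move.

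Pooled over libraries, Itgam was lower and Itgb2 higher in cells with more MGnD genes detected. The number detected is a sampled count, so whether single cells change by degrees was not tested. From 0 to at least 5 MGnD genes, pooled plain CPM went through 594, 535, 405, 389, 377 and 377 for Itgam and through 204, 220, 220, 245, 260 and 289 for Itgb2. Itgam was lower in the cells with 2 MGnD genes than in those with none in every library, at 415, 383, 432 and 366 CPM against 591, 645, 608 and 510. The summed C1q chains stood at 21797, 19237, 20614 and 20604 CPM with no MGnD gene and at 19598, 21078, 17824 and 18770 CPM with 5 or more, higher at the last step in cKO replicate 2, which had 45 cells there, and lower in the other 3 libraries. These steps are descriptions, since the cells of a library share it.

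**Figure D4:**
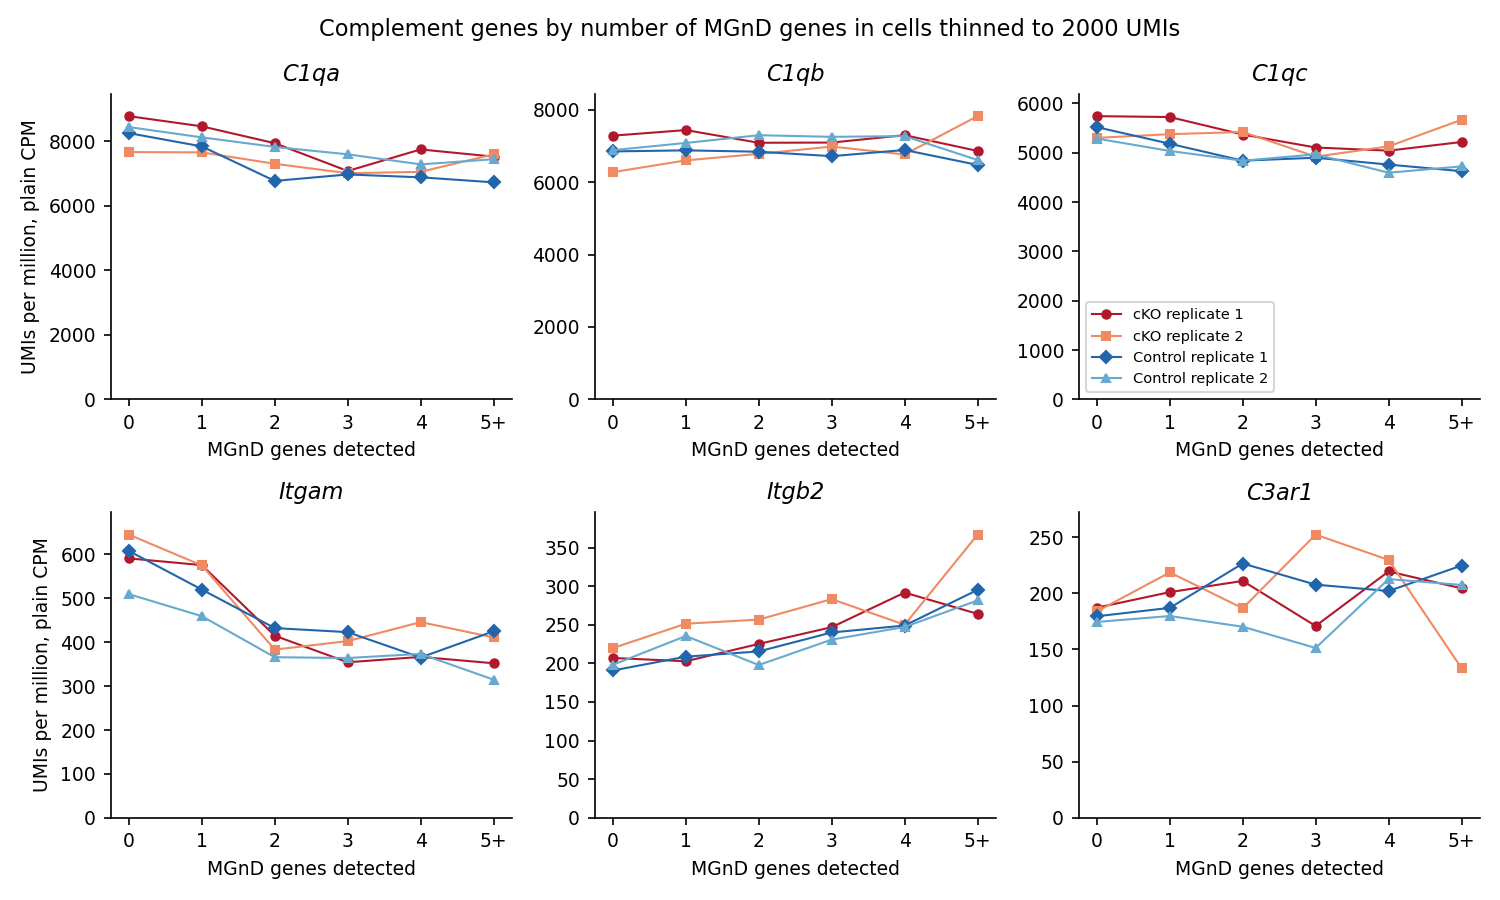
Plain CPM of C1qa, C1qb, C1qc, Itgam, Itgb2 and C3ar1 by the number of MGnD genes detected in cells thinned to 2000 UMIs, for each library. Itgam drops between 0 and 2 MGnD genes in all 4 libraries and Itgb2 is highest or near its highest at 5 or more.

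Of the 9 genes C4b alone was called in interferon cells. C4b stood at 11.3, 18.4, 14.2 and 17.7 CPM in interferon cells and at 3.43, 3.14, 2.45 and 2.37 CPM in cells of no state. The groups did not overlap, and the log2 difference was 2.36 (SE 0.57, adjusted p = 0.00446 by edgeR). Only 15 UMIs in interferon cells and 52 in the others carry it. With all UMIs of the same cells, a comparison added after the values were seen, there were 7, 18, 13 and 5 UMIs, and the log2 difference was 1.30 (SE 0.31, adjusted p = 0.0101 by edgeR), 2.46-fold. The thinned value lost its call without Control replicate 1 (2.32, adjusted p = 0.0542 by edgeR) and without cKO replicate 2 (2.30, adjusted p = 0.0629 by edgeR). None of the other 7 genes tested was called. Higher calls took 3.51% of all genes, and lower calls 0.512%, with 4.12% higher when all UMIs were used.

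In cells high in Tnf and Ccl4 both anaphylatoxin receptor genes were called higher, C5ar1 less firmly. C3ar1 stood at 232, 239, 253 and 223 CPM against 174, 163, 171 and 163 in cells of no state, with no overlap. The log2 difference was 0.49 (SE 0.08, adjusted p = 4.81e-06 by edgeR), 1.41-fold. C5ar1 stood at 65.3, 67.2, 70.0 and 55.1 CPM against 58.7, 45.7, 42.3 and 37.6, higher in 4 of 4 libraries though the ranges overlapped. Its difference was 0.47 (SE 0.13, adjusted p = 0.0338 by edgeR). The thinned C5ar1 value was not called without Control replicate 1 (0.39, adjusted p = 0.301 by edgeR), without Control replicate 2 (0.44, adjusted p = 0.128 by edgeR) or without cKO replicate 2 (0.43, adjusted p = 0.177 by edgeR). Nor was it called with states set at 2 or more genes (0.36, adjusted p = 0.154 by edgeR), at 1000 UMIs per cell (0.46, adjusted p = 0.446 by edgeR) or with no filter (0.43, adjusted p = 0.105 by edgeR), and DESeq2 gave it no adjusted p. With all UMIs of the same cells the differences were 0.37 (SE 0.05, adjusted p = 2.75e-05 by edgeR) for C3ar1 and 0.40 (SE 0.07, adjusted p = 0.000483 by edgeR) for C5ar1. These were 2 of 8 genes called higher and 0 lower, against 1.69% and 0.28% of all genes, and 2.02% higher with all UMIs. Itgam stood at 529, 537, 487 and 392 CPM against 546, 584, 552 and 503 and was not called (-0.16, SE 0.06, adjusted p = 0.16 by edgeR).

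The 250 bases before the starts of C3ar1 (chr6:122856158-122856407, minus strand) and C5ar1 (chr7:16259339-16259588, minus strand) are shown because these genes were higher in the same cells.
C3ar1: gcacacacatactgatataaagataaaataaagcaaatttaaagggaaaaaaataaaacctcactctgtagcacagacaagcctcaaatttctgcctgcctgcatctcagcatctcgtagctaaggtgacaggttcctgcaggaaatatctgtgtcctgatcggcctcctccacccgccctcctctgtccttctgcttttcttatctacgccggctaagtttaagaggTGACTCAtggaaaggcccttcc
C5ar1: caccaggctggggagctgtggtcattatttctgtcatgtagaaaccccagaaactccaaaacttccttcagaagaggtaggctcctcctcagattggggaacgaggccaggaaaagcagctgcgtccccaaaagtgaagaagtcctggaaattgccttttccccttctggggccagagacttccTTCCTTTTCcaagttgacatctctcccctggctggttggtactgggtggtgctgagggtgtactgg
The C3ar1 stretch holds an AP-1 site at position -22, a motif present in 7.81% of promoters, and none of the other motifs in its 300 bases. The C5ar1 stretch holds an interferon response core at position -66, read on the other strand and present in 8.56% of promoters, and no AP-1 or kappaB match. A kappaB core stands in 1.25% of promoters and in none of the 6. In the remaining entries, Itgam has PU.1 cores at -84, -15 and 32, and C3 a C/EBP site at -45, a motif in 10.8% of promoters.

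**Figure D5:**
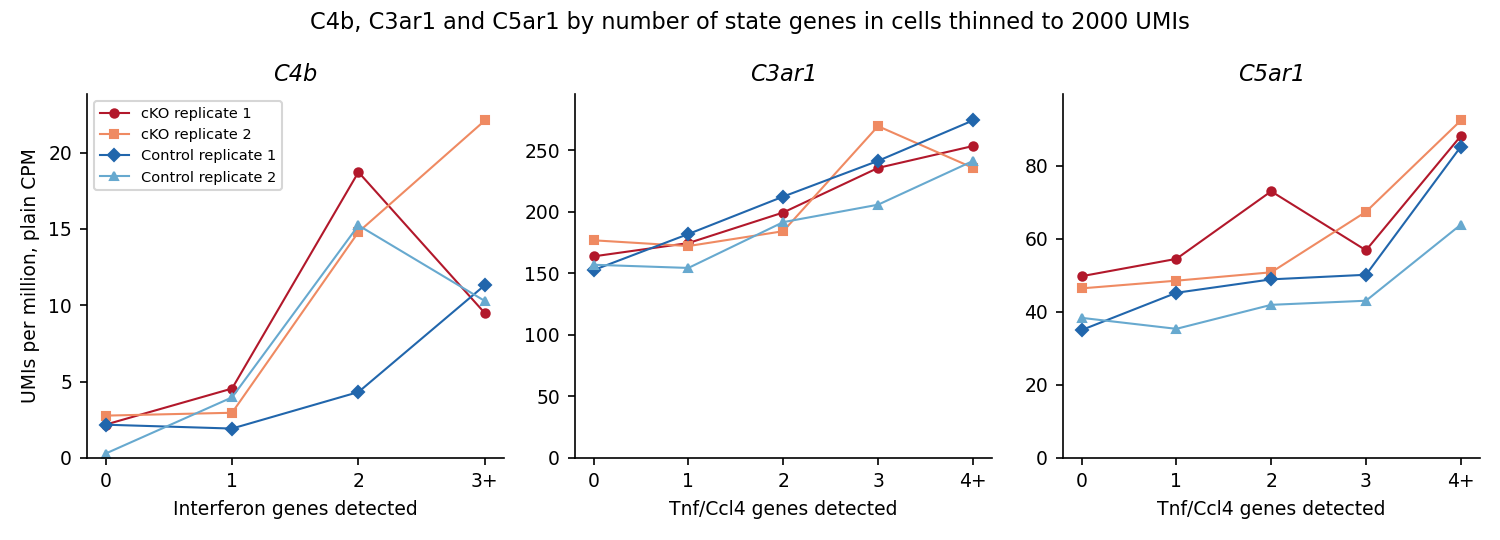
Plain CPM of C4b by the number of interferon genes and of C3ar1 and C5ar1 by the number of Tnf/Ccl4 genes detected, in cells thinned to 2000 UMIs, for each library. C3ar1 runs from 153 to 177 CPM with no such gene to 236 to 274 CPM with 4 or more, and C5ar1 from 35.0 to 49.7 CPM to 63.8 to 92.4 CPM.

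State and genotype were also fitted together. None of 24 tests, for 8 genes in 3 states, had a difference between the genotypes past the threshold by edgeR. None had an unadjusted p under 0.05 and the smallest was 0.0791, for C4b in MGnD cells. Among all genes such calls took 0%, 0.0821% and 0% for MGnD, interferon and Tnf/Ccl4 in turn. DESeq2 called no gene.

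The rest of the pathway was sparse. From a list of 58 complement genes, 49 are outside the 9. All 7 terminal components lay below 1 CPM, with C8g highest at 0.642 CPM. Among lectin pathway genes Masp1, a protease of that pathway, led with 10.8 CPM, followed by Colec12 at 1.25 CPM. On the alternative side C3 at 2.16 CPM and Cfb, the factor B gene, at 1.05 CPM were highest. Receptors were better represented: of 11 receptor genes, some of them among the 9, 8 stood at 20 CPM or more. Of 14 regulators 3 did, and 9 lay below 1 CPM. Calr, the calreticulin gene whose protein can bind C1q, stood at 842 CPM. Cr1l, the gene of the rodent membrane regulator Crry, stood at 98.5 CPM. The integrin partners Tln1 and Fermt3, which encode talin and kindlin-3, stood at 296 and 268 CPM. None of the 23 genes tested outside the 9 was called by genotype by edgeR, as was 0% of all genes. Of them 3 had an unadjusted p under 0.05, against 987 of all 13607 genes.

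In MGnD cells 10 genes of the list outside the 9 were tested, and 6 were called higher and 2 lower with TMM factors, where 20.3% and 17.1% of all genes were. In plain CPM 4 were called higher and 4 lower, where 11.1% and 43.2% of all genes were. The largest difference was in Itgax, the CD11c gene and another partner of Itgb2, a known gene of this state. Itgax stood at 130, 169, 114 and 157 CPM against 9.28, 6.77, 7.35 and 11.0, a log2 difference of 3.99 (SE 0.15) and 3.67 in plain CPM. Masp1 was higher by 1.91 (SE 0.31), Calr by 0.68 (SE 0.05) and C1qbp, the gene of a mitochondrial protein that can bind C1q, by 0.76 (SE 0.12). C5ar2, the second C5a receptor gene, was lower at 26.0 ± 11.5 CPM (SD, n = 4) against 58.1 ± 4.6 (SD, n = 4), a difference of -0.97 (SE 0.17) that was not called at 1000 UMIs per cell (-0.61, adjusted p = 0.0810 by edgeR). Fermt3 was lower at -0.27 (SE 0.08). These 6 kept their direction and call in plain CPM, whereas Tln1 (0.42, then 0.11) did not stay called, and Lrp1 (-0.33) and Cr1l (-0.55) were called lower there. In interferon and Tnf/Ccl4 cells none of the 10 was called with TMM factors.

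Free RNA, the UMIs of barcodes with at most 100, took 11.2% to 17.8% of a library and also held complement RNA. C1q made up 1.23%, 0.896%, 1.24% and 1.20% of free UMIs, so its share in cells was 1.71, 2.15, 1.58 and 1.64 times that in free RNA. In plain CPM 7 of the 9 genes were higher in cells, all but C3 and C4b, but 66.4% of 12981 genes were higher and 1.36% lower there, with a median of 0.47. Relative to other genes, with TMM factors, C1qc alone was called higher in cells by edgeR (0.59, SE 0.10) and Itgam alone lower (-0.25, SE 0.08), while Itgam turned to 0.21 in plain CPM. With free RNA taken only from barcodes of at most 50 UMIs, C1qc was not called (0.12), C1qb was called lower in cells (-0.46, adjusted p = 0.000142 by edgeR) and Itgam turned to 0.31. From barcodes of 20 to 100 UMIs, C1qa (0.63, adjusted p = 0.00198 by edgeR) and C1qb (0.59, adjusted p = 0.00305 by edgeR) were called higher. Called genes took 10.4% higher and 11.4% lower. C1qc made up 21.8%, 26.3%, 21.1% and 19.98% of C1q UMIs in free RNA and 25.1% to 27.6% in cells. The Itgam call was lost without cKO replicate 1 (-0.26), Control replicate 1 (-0.29) or Control replicate 2 (-0.24), with adjusted p of 0.198, 0.112 and 0.175 by edgeR.

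Across the 16 sums of libraries and states the C1q chains followed each other, with Pearson r of log2 CPM of 0.87 to 0.90. Outside the 9 genes and the state lists, the genes most like C1qb were Arpc3 (0.95), Pgls (0.94) and mt-Nd4 (0.94), and those most like C1qa were Arpc2 (0.86), Lag3 (0.85) and Atp6v1g1 (0.84). C1qc was most like Bri3 (0.90), Naa20 (0.88) and Gpx4 (0.88). Itgb2 was most like Sh3bgrl3 (0.96), Eif5a (0.95) and Micos10 (0.94), and the 3 genes most like Itgam included Tbc1d9 (0.77) and Tnfrsf1a (0.76). The 3 most like C3ar1 included Srebf2 (0.76) and Osm (0.74), and C5ar1 was most like Galnt7 (0.82), Slf2 (0.75) and Eif3b (0.74). C3ar1 and C5ar1 had r of 0.63 with each other, and Itgam had -0.40 with its partner Itgb2. These sums share libraries and the MGnD difference, so the values only describe likeness.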

How the data were processed

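Raw UMI counts per gene and barcode were deposited by the authors, unfiltered. The submitters' processing notes name Cell Ranger 4.0.0 and the build mm10. The barcode and feature names per the file headers (other: names, no measurement) only label them. Raw UMIs were summed per library (genotype), per library and state class after thinning to 2000 UMIs (16 sums, library as a term), or per library in cells and in barcodes of at most 100 UMIs (8 sums). Genes were chosen and named by the fixed list and, for likeness, the 3 highest correlations per gene above 20 CPM. Some genes that this rule names are not reported here. Fits used edgeR 4.0.16 in R 4.3.3 (filterByExpr, TMM, quasi-likelihood, two-sided, Benjamini-Hochberg over all genes at 0.05) and were tested on simulated data. Plain CPM uses library totals. With 2 libraries against 2 no exact permutation test can go below p = 0.333. Summed UMIs cannot tell fewer cells of a type from less RNA per cell. The members and lists were chosen with earlier results of these data known. Doublets were not removed in the values reported, since Scrublet's own limit (scanpy 1.11.5) called 1 barcode, in cKO replicate 2. An alternative took out 0.8% per 1000 cells, 117, 65, 151 and 68 barcodes. Whether libraries came from separate mice is not stated beyond the replicate label, so genotype p-values measure the spread between these libraries. State and free RNA p-values, with library as a term, measure how far differences within a library vary over these libraries.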

Additional observations from a re-analysis of the deposited data

Results flagged for a closer look

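At 2000 UMIs per cell C3 in MGnD cells was above cells of no state in both cKO libraries, by 17.8 plain CPM on average, and listed below it in both Control libraries, by -0.515, a gap of 18.3 CPM. This rests on 14 UMIs in 485 cKO MGnD cells and 0 in 841 Control MGnD cells, which allows up to 1.78 CPM (3 counts, for counting error only). That limit is above the 0.566 CPM of Control cells of no state, so a lower level in Control MGnD cells was not detectable at this depth. C3 was too rare for the fit at this depth, so the difference was not tested there. With all UMIs of the same cells C3 had 19 UMIs in 17 barcodes, 28 in 7 (14 of them in 1 barcode), 3 in 3 and 5 in 5, or 4.35, 17.1, 0.457 and 1.12 CPM in cKO replicates 1 and 2 and Control replicates 1 and 2. In cells of no state it stood at 2.85, 0.878, 1.75 and 0.506 CPM. Control replicate 2 was then higher in MGnD cells. By edgeR C3 was higher in MGnD cells by 1.56 on the log2 scale (SE 0.53, adjusted p = 0.0159, where 26.1% of genes were called higher). The genotype by state term was 2.89 (SE 1.1) with an adjusted p of 1.00 by edgeR. Barcodes marked as another cell class held 2 of these MGnD UMIs, so nearly all came from barcodes without such marks. In cells of no state, such barcodes held 37 of 56, 0 of 15, 20 of 40 and 0 of 7 C3 UMIs in the same order of libraries.

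C3 in Tnf/Ccl4 cells was likewise above cells of no state in both cKO libraries, by 0.362 CPM on average, and listed below in both Control libraries, by -0.515, a gap of 0.876 CPM from 3 UMIs in all. The Control cells had 0 UMIs in 656 cells, which allows up to 2.29 CPM, above their 0.566 CPM in no state, so no lower level was detectable. This difference was not tested at that depth.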

How the results depend on the processing

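Alternatives leaving libraries out or without TMM factors most often moved results; the cause was not tested. Those without TMM factors (states, genotype), with all UMIs, and all for the genotype by state term were chosen after seeing the data. Of the C1q and receptor differences by genotype none was called in the alternatives run.

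Genotype calls, 0 as reported, numbered 18 with DESeq2, 350 with no filter, 11 thinned to 2000 UMIs, 4 at 2000 or more UMIs, 15 without MGnD-high cells, 9 in cells of no state, 4 without other classes, 17 without TMM factors, and 26 to 613 with a library left out. No pairing is stated: with the replicate number as a block (replicate block) 170 genes were called, C3 among them (1.35, adjusted p = 0.00826 by edgeR), and the deviations of same-numbered libraries correlated at 0.178 for both numbers, from 2 pairs, so the numbers were taken as names. Log2 differences by genotype that turned sign were C1qa (0.040 without TMM factors, -0.15 to 0.056 with a library left out), C1qb (-0.20 to 0.022 with a library left out), C1qc (-0.0051 thinned, -0.00075 without MGnD-high cells, -0.0099 in cells of no state, -0.036 to 0.075 with a library left out), C3ar1 (-0.017 thinned, -0.00028 to 0.10 with a library left out), Itgam (-0.034 to 0.19 with a library left out) and Itgb2 (0.0067 thinned, 0.049 without MGnD-high cells, 0.052 in cells of no state, 0.066 without TMM factors). C3 kept its sign, at 1.04 to 1.75 with a library left out and 2.50 thinned to 2000 UMIs.

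MGnD calls went from 3069 to 1741 at 1000 UMIs and 5840 with all UMIs. There C1qa was -0.16, C1qc -0.12 and C5ar1 -0.13 without TMM factors, and C5ar1 -0.044 at 2 or more genes and -0.11 with all UMIs. Interferon calls went from 330 to 199 at 1000 UMIs, 562 with overlapping states and 549 with all UMIs. There C1qa was -0.052, C1qb -0.017, C1qc -0.036, C3ar1 -0.016 and Itgam -0.025 with no filter, C1qa -0.0011 without TMM factors, C3ar1 -0.079, Itgam -0.033 and Itgb2 -0.10 at 1000 UMIs, C3ar1 -0.054 and Itgam -0.041 with overlapping states, Itgb2 -0.048 with all UMIs, and C3ar1 -0.044 to 0.17 with a library left out. Tnf/Ccl4 calls went from 162 to 62 at 2 or more genes, 853 with overlapping states, 283 with all UMIs and 104 to 151 with a library left out. There C1qa was 0.020 at 4 or more genes, 0.0024 at 1000 UMIs, 0.013 with DESeq2 or RLE factors, 0.010 with all UMIs and -0.027 to 0.0099 with a library left out, and C1qc -0.016 at 2 or more genes and -0.011 with no filter. Itgam was called lower with no filter (-0.20) and overlapping states (-0.23). Genotype by state calls, 7 as reported, numbered 21 at 2 or more genes, 1 at 1000 UMIs, 0 with DESeq2, 28 with no filter, 0 with all UMIs and 7 to 23 with a library left out.

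Free RNA calls went from 2840 to 8789 without TMM factors and 1210 to 4420 with a library left out. Differences of cells from free RNA that turned sign were C1qa (-0.24), C1qb (-0.46), C3 (-0.34), C3ar1 (0.055) and Itgam (0.31) at 50 or fewer UMIs, C4b (-0.095) at 20 to 100 UMIs, C3ar1 (0.34) and Itgam (0.21) without TMM factors, and C3 (-0.23 to 0.28) and C4b (-0.21 to 0.24) with a library left out. A library left alone in its group is assumed to vary like the other group. C3 could not be fitted between states at 2000 UMIs per cell, and depth limits C3, C4b and C5ar1 most.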

Other observations

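Cells that met several state rules at once, 883 in all and left out of the tests between states, also had less Itgam than cells of no state: 341, 374, 399 and 314 plain CPM in cKO replicates 1 and 2 and Control replicates 1 and 2, against 574, 632, 579 and 502. Itgb2 stood at 236, 280, 269 and 252 CPM against 209, 225, 196 and 204, and C3ar1 at 228, 252, 224 and 203 CPM against 183, 176, 179 and 163. In each library the value of these 3 genes lay on the side that MGnD cells took with TMM factors. Most of these cells met the MGnD rule themselves, so the values are not separate from that rule. It was met by 16.1%, 8.70%, 19.9% and 19.1% of thinned cells, and met alone by 10.1%, 4.58%, 13.2% and 11.9%. Cells of several states made up 6.86%, 5.36%, 7.30% and 7.67%. In plain CPM, C3ar1 was higher in MGnD cells in 3 of 4 libraries. Tnf/Ccl4 cells also had higher C3ar1 and lower Itgam in every library, and higher Itgb2 in 3 of 4. With all their UMIs counted, C3 had 15, 20, 7 and 7 UMIs in them, or 5.24, 10.6, 1.77 and 2.63 CPM. No test was run on these cells.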
